A study of Rattus norvegicus with 12 samples.

Results

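Hydrogen peroxide and superoxide are removed in muscle cells by a small set of enzymes. Superoxide dismutases turn superoxide into hydrogen peroxide, and catalase and the peroxiredoxins break the peroxide down. Peroxiredoxins are then reduced by thioredoxin, thioredoxin is reduced by thioredoxin reductase at the cost of NADPH, and sulfiredoxin repairs peroxiredoxins that were oxidised too far. The 10 genes described here cover these steps and were chosen by name, with earlier results of these data known. They are *Txn1* (thioredoxin), *Txnrd1* and *Txnrd2* (the cytosolic and the mitochondrial thioredoxin reductase), *Txnip* (a protein that binds thioredoxin and holds it back), *Srxn1* (sulfiredoxin), *Prdx1* and *Prdx6* (peroxiredoxins), *Cat* (catalase), and *Sod1* and *Sod2* (the copper and zinc dismutase of the cytosol and the manganese dismutase of mitochondria). A probe was taken as measuring one of them when its RefSeq identifier, with versions ignored, carried that rat symbol. These are 10 of 16581 genes named in this way on the arrays, of which 10741 were tested.

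Rat L6 cells, a skeletal muscle line, were differentiated into myotubes, for 6 days by the labels, and then treated for 24 h. The methods give a slightly longer differentiation. The 4 groups were a control, 60 µM GR24, 60 µM pinosylvin and 60 µM resveratrol, with 3 arrays each and 12 arrays in all. The methods name DMSO as the solvent of GR24, at an equivalent concentration in the controls, and do not describe the stilbene treatments. GR24 is a synthetic strigolactone, a class of plant hormones, while pinosylvin and resveratrol are stilbenes that plants make. The methods describe independent experiments for the GR24 treatment, its controls included. Neither they nor the labels say this of the stilbene groups, for which the p-values measure only the spread between these samples. Slide 1 carried replicates 1 and 2 of all 4 groups, and slide 2 carried replicate 3 of each.

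Signals are log2 intensities relative to the 75th percentile of the same array, which is therefore 0. They can be compared between groups for 1 probe, and not between probes. The summed and brightest markers of cell types are given as a description only, since probes differ in their response. Of the 45598 probes, 24279 were tested, namely those that some group showed well above background on each of its 3 arrays. Every member passed, and every main probe was well above background on 12 of 12 arrays, so no member entered through its brightest group alone. *Txnrd1* had 2 probes and each other member had 1. The probes of *Txn1* and *Prdx1* are printed in 10 spots on each array. The SD between the spots of an array was 0.057 to 0.13 for *Txn1* and 0.029 to 0.085 for *Prdx1*, of which 8 spots were used on control replicate 2.

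The labelled cell type was checked against 12 myotube markers. All 12 were well above background on the 3 control arrays, and the brightest was *Myh3*, the embryonic myosin heavy chain. So were all 5 fibroblast markers and 6 of the 7 markers of cycling or undifferentiated cells on the arrays. Being above background therefore does not by itself set myotubes apart. The myotube markers moved with GR24. By limma, 9 of 12 were lower than in the control and 0 higher, where 25.5% of all tested probes were lower and 31.5% higher. The median log2 fold change of the 12 markers was -1.95. Their summed linear level relative to the 75th percentile was 782, 846 and 735 on the control arrays and 315, 301 and 297 on the GR24 arrays. *Myog*, a transcription factor of muscle differentiation, went from 5.19 ± 0.095 to -0.64 ± 0.36 (SD, n = 3), and no GR24 array showed *Myod1* well above background. With pinosylvin 2 of 12 were higher and 0 lower, beside 8.28% and 8.27% of all tested probes, at sums of 866, 898 and 833. With resveratrol 0 were higher and 6 lower, beside 7.99% and 8.99%, at sums of 641, 658 and 615.

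Markers of cycling or undifferentiated cells moved too. The cell cycle genes *Mki67*, *Ccnb1* and *Cdk1* were lower with each compound, and *Id2*, a gene of undifferentiated cells, was higher with GR24. Of the 6 tested, GR24 had 1 higher and 3 lower, beside 31.5% and 25.5% of all tested probes. Pinosylvin had 0 and 5, beside 8.28% and 8.27%, and resveratrol 0 and 3, beside 7.99% and 8.99%. The summed level of the 7 on the arrays was 52.8 to 58.7 on control arrays, 9.08 to 9.83 with GR24, 19.2 to 21 with pinosylvin and 30.5 to 33.5 with resveratrol. The brightest of them was *Cdk1* in every group. Of 5 fibroblast markers, GR24 had 1 higher and 4 lower, pinosylvin 1 and 2, and resveratrol 1 and 1, beside the same shares of all tested probes. Of the leukocyte markers only *Cd68* was tested, and it was higher with GR24, at -0.57 ± 0.074 against -3.24 ± 0.34 (SD, n = 3), while no control or GR24 array showed *Ptprc* well above background. No adipocyte marker was tested. The part of these shifts in the results on the 10 genes was not tested. In RNA from whole cultures, fewer cells of a type and less RNA per cell cannot be told apart.

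GR24 raised most of the 10 genes. By limma with Benjamini-Hochberg adjustment at 0.05, 8 of 10 were higher than in the control, where 31.5% of all tested probes were higher. None was lower, against 25.5% of all tested probes, and 0 were lower also at an unadjusted p under 0.05. This depends on the model. With the replicate number as a block *Txnip* was called lower (adjusted p = 0.0130), where 30.3% of all tested probes were lower. The median log2 fold change over the 10 genes was 1.21, beside 0.027 over all tested probes. The 2 genes not called were *Txnip* and *Sod2*. The study itself lists *Txn1*, *Txnrd1*, *Srxn1*, *Prdx1*, *Prdx6*, *Cat* and *Sod1* as raised by GR24 in this series. The members were chosen with earlier results of these data known, so the count of 8 is no independent support.

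Resveratrol raised fewer of them, and pinosylvin fewer than resveratrol. With resveratrol 6 of 10 were higher, where 7.99% of all tested probes were higher, and none was lower, where 8.99% were lower, with a median of 0.56 beside 0.010. With pinosylvin 3 of 10 were higher, where 8.28% of all tested probes were higher, and none was lower, where 8.27% were lower, with a median of 0.26 beside 0.054. The pinosylvin count depends on the model. With the replicate number as a block it was 5, with 6947 probes called in place of 4019, and with the arrays of the 2 groups alone it was 1. The resveratrol count stayed at 6 with that block, where 6769 probes were called in place of 4123. In neither comparison was a member lower at an unadjusted p under 0.05, the count being 0 in both. All 3 comparisons use the same control arrays, so they are not independent of each other. Within slide 1, with 2 arrays per group, and within slide 2, with 1 array per group, every member called in these comparisons had the same sign as over both slides. For GR24 the log2 fold changes of the 8 genes were 0.57 to 2.36 within slide 1 and 0.91 to 2.23 within slide 2.

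**Figure D1:**
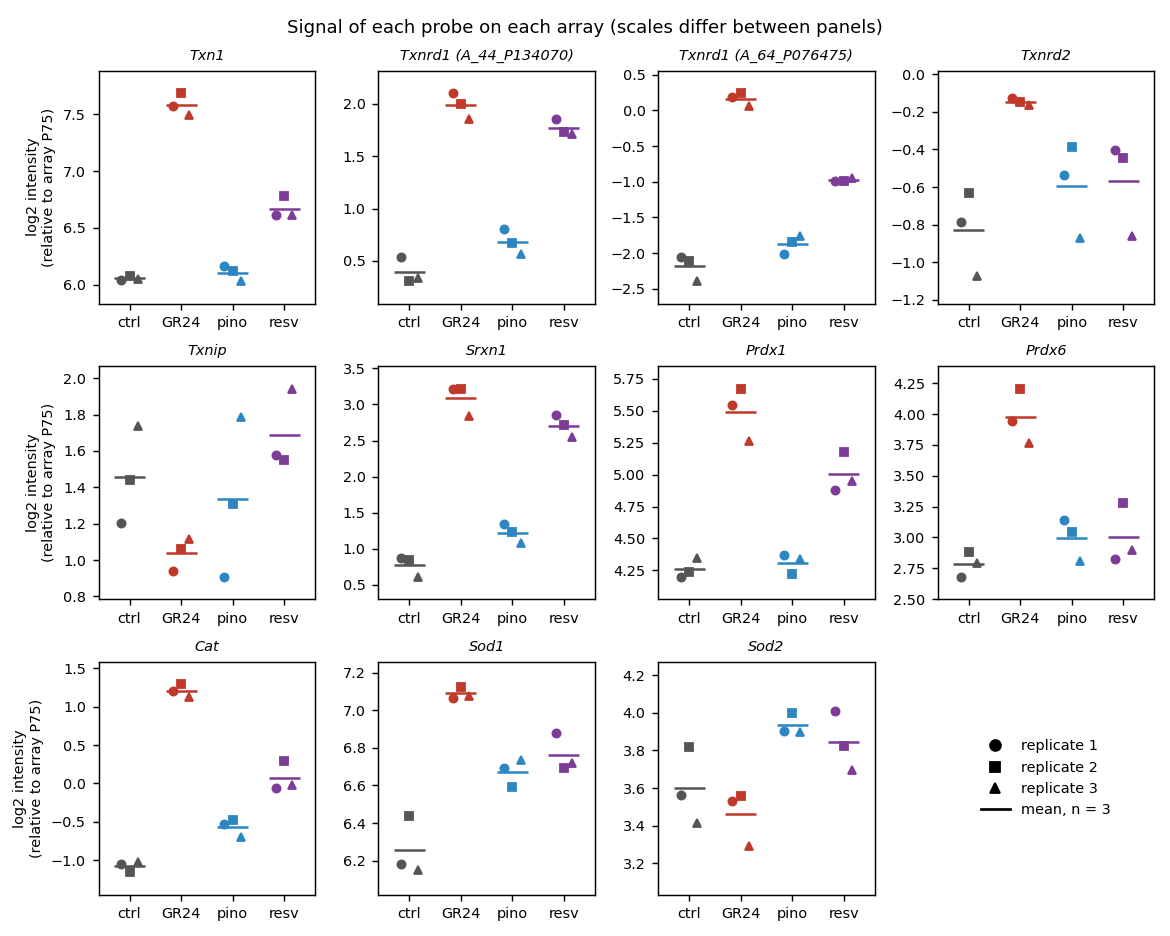
Signal of each probe on each of the 12 arrays, as log2 intensity relative to the 75th percentile of the array. Symbols are the 3 replicates of a group, lines are group means, and the scale differs between panels. The 3 GR24 arrays lie above the 3 control arrays for 8 genes, and for *Txn1* they read 7.49 to 7.68 against 6.04 to 6.08.

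Thioredoxin itself, *Txn1*, read 6.04, 6.08 and 6.05 on the control arrays (replicates 1, 2 and 3) and 7.57, 7.68 and 7.49 with GR24. It read 6.16, 6.12 and 6.03 with pinosylvin and 6.61, 6.78 and 6.61 with resveratrol. All GR24 arrays lay above all resveratrol arrays, these lay above all control arrays, and the pinosylvin and control arrays overlapped. With GR24 *Txn1* rose 2.88-fold, a log2 change of 1.53 (SE 0.074, 95% interval 1.36 to 1.69, adjusted p = 4.94e-08). With resveratrol it rose 1.53-fold, a log2 change of 0.61 (SE 0.074, adjusted p = 0.000357). Pinosylvin gave 0.049 (95% interval -0.12 to 0.21, adjusted p = 0.738), which did not pass the test, and whose sign turned with quantile normalization and in the deposited table.

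*Txnrd1*, which passes electrons from NADPH to thioredoxin and is a selenoprotein, was read by 2 probes. The brighter, A_44_P134070, read 0.53, 0.31 and 0.33 on the control arrays, 2.10, 2.00 and 1.86 with GR24, 0.80, 0.68 and 0.56 with pinosylvin, and 1.86, 1.73 and 1.71 with resveratrol. The other, A_64_P076475, read -2.05, -2.11 and -2.39 in the control, 0.18, 0.24 and 0.059 with GR24, -2.01, -1.85 and -1.76 with pinosylvin, and -0.99, -0.98 and -0.95 with resveratrol. On both probes each group of treated arrays lay wholly above the control arrays. On the second probe the GR24 arrays stood far above the resveratrol arrays, while on the first they were separated by less than 0.01 between the lowest GR24 and the highest resveratrol array. GR24 minus control was 1.60 (SE 0.095, adjusted p = 2.19e-07) on the first probe and 2.35 (SE 0.10, adjusted p = 1.88e-08) on the second. Resveratrol minus control was 1.38 (SE 0.095, adjusted p = 1.36e-05) and 1.21 (SE 0.10, adjusted p = 3.59e-05).

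The probes of *Txnrd1* differed in 1 of the 6 comparisons as to the call. GR24 minus resveratrol was 0.22 on the first probe (95% interval 0.010 to 0.43, adjusted p = 0.0759) and did not pass. On the second probe it was 1.14 (95% interval 0.91 to 1.36, adjusted p = 5.84e-06) and passed. This difference in call is not firm, since the first probe passed under 7 of the alternatives. Among them were the replicate number as a block (adjusted p = 0.0040), the slide as a block (0.0237), quantile normalization (0.0371), the deposited table (0.0363) and the fit without GR24 replicate 3 (0.0396). The signal of the second probe minus that of the first was -2.58 ± 0.16 in the control, -1.83 ± 0.084 with GR24, -2.55 ± 0.25 with pinosylvin and -2.74 ± 0.092 with resveratrol (SD, n = 3). It was thus 0.75 higher with GR24 than in the control and 0.91 higher than with resveratrol. In the exact two-sided permutation test of each of these shifts p was 0.1, the smallest value that 3 arrays against 3 can give. The RefSeq table gives both probes the same transcript, and the positions of the probes within it were not analysed here.

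Neither probe of *Txnrd1* passed for pinosylvin, although on both the 3 pinosylvin arrays were above the 3 control arrays. The log2 change was 0.29 on the first probe (95% interval 0.078 to 0.50, adjusted p = 0.0648) and 0.31 on the second (95% interval 0.092 to 0.54, adjusted p = 0.0577). Both probes passed with the replicate number as a block (adjusted p = 0.0033 and 0.0459). The first probe passed under 8 of the alternatives, among them this block, the slide as a block (0.0159), quantile normalization (0.0379) and the fit without control replicate 1 (0.0451).

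*Txnrd2*, the mitochondrial reductase, read -0.78, -0.63 and -1.07 in the control and -0.13, -0.14 and -0.17 with GR24. It read -0.53, -0.39 and -0.87 with pinosylvin and -0.40, -0.45 and -0.86 with resveratrol. Replicate 3 was the lowest array in every group, the GR24 arrays lay above all others, and the remaining groups overlapped. GR24 raised *Txnrd2* 1.61-fold, a log2 change of 0.68 (SE 0.16, adjusted p = 0.00365), with 0.57 within slide 1 and 0.91 within slide 2. Pinosylvin gave 0.23 (95% interval -0.12 to 0.59) and resveratrol 0.26 (95% interval -0.091 to 0.61), and neither passed.

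*Txnip* went the other way with GR24. It read 1.20, 1.44 and 1.73 in the control, 0.94, 1.06 and 1.11 with GR24, 0.91, 1.31 and 1.78 with pinosylvin, and 1.58, 1.55 and 1.94 with resveratrol. All 3 GR24 arrays were below all 3 control arrays, and the other groups overlapped the control. The GR24 difference was -0.42 (SE 0.21, 95% interval -0.89 to 0.048, adjusted p = 0.116) and did not pass the test. With the replicate number as a block it passed at the same size (adjusted p = 0.0130), and with the slide as a block too (adjusted p = 0.0183). The difference was -0.32 within slide 1 and -0.62 within slide 2. Pinosylvin gave -0.12 (95% interval -0.59 to 0.34) and resveratrol 0.23 (95% interval -0.24 to 0.70), neither of which passed.

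Sulfiredoxin, *Srxn1*, had the largest log2 fold change of the 10 main probes with GR24 and with resveratrol. It read 0.87, 0.84 and 0.61 in the control, 3.22, 3.21 and 2.85 with GR24, 1.35, 1.24 and 1.08 with pinosylvin, and 2.85, 2.72 and 2.55 with resveratrol. Every treated array was above every control array, and every pinosylvin array was below every GR24 and resveratrol array. GR24 raised it 4.98-fold, a log2 change of 2.32 (SE 0.13, adjusted p = 1.21e-07), and resveratrol 3.82-fold, a log2 change of 1.93 (SE 0.13, adjusted p = 1.03e-05). Pinosylvin raised it 1.36-fold, a log2 change of 0.44 (SE 0.13, 95% interval 0.16 to 0.73, adjusted p = 0.0383). This last call is close to the threshold. It was lost without control replicate 1, 2 or 3 (adjusted p = 0.0614, 0.0622 and 0.124), without pinosylvin replicate 1 or 2 (0.130 and 0.104) and without resveratrol replicate 2 (0.0557). The call was also lost with another background correction (0.0663), with no filter on dim probes (0.112) and with the arrays of the 2 groups alone (0.0573).

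*Prdx1*, a peroxiredoxin of the cytosol that thioredoxin reduces, read 4.20, 4.24 and 4.35 in the control and 5.54, 5.67 and 5.26 with GR24. It read 4.37, 4.22 and 4.34 with pinosylvin and 4.88, 5.18 and 4.95 with resveratrol. The GR24 arrays were highest, the resveratrol arrays lay between them and the control, and the pinosylvin arrays overlapped the control arrays. GR24 raised *Prdx1* 2.35-fold, a log2 change of 1.23 (SE 0.11, adjusted p = 5.65e-06), and resveratrol 1.67-fold, a log2 change of 0.74 (SE 0.11, adjusted p = 0.00139). Pinosylvin gave 0.047 (95% interval -0.20 to 0.30, adjusted p = 0.847).

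*Prdx6*, which also reduces phospholipid hydroperoxides and does not depend on thioredoxin, read 2.68, 2.89 and 2.80 in the control and 3.95, 4.21 and 3.77 with GR24. It read 3.14, 3.05 and 2.81 with pinosylvin and 2.82, 3.282 and 2.89 with resveratrol. Only the GR24 arrays stood apart, and those of the 3 other groups overlapped. GR24 raised it 2.28-fold, a log2 change of 1.19 (SE 0.15, adjusted p = 5.55e-05). Pinosylvin gave 0.21 (95% interval -0.12 to 0.54) and resveratrol 0.21 (95% interval -0.12 to 0.54), and neither passed.

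Catalase, *Cat*, the peroxisomal enzyme that splits hydrogen peroxide into water and oxygen, was higher with all 3 compounds. It read -1.05, -1.16 and -1.02 in the control, 1.20, 1.29 and 1.13 with GR24, -0.52, -0.48 and -0.70 with pinosylvin, and -0.06, 0.30 and -0.02 with resveratrol. The 4 groups did not overlap and stood in the order GR24, resveratrol, pinosylvin and control. GR24 raised *Cat* 4.87-fold, a log2 change of 2.28 (SE 0.10, adjusted p = 2.94e-08), resveratrol 2.22-fold, a log2 change of 1.15 (SE 0.10, adjusted p = 5.96e-05), and pinosylvin 1.42-fold, a log2 change of 0.51 (SE 0.10, adjusted p = 0.00708). The pinosylvin difference was 0.32 within slide 2.

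*Sod1* read 6.18, 6.44 and 6.15 in the control, 7.07, 7.13 and 7.08 with GR24, 6.69, 6.59 and 6.73 with pinosylvin, and 6.88, 6.69 and 6.72 with resveratrol. The GR24 arrays were highest, the pinosylvin and resveratrol arrays overlapped each other, and all of them lay above the control arrays. GR24 raised it 1.78-fold, a log2 change of 0.83 (SE 0.087, adjusted p = 1.49e-05), resveratrol 1.42-fold (0.51, SE 0.087, adjusted p = 0.00282) and pinosylvin 1.33-fold (0.42, SE 0.087, adjusted p = 0.00868). The pinosylvin difference was 0.33 within slide 1 and missed the threshold there (adjusted p = 0.0967), and was 0.58 within slide 2.

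*Sod2*, the mitochondrial dismutase, differed from *Sod1* in that no comparison with the control passed. It read 3.56, 3.82 and 3.41 in the control, 3.53, 3.56 and 3.29 with GR24, 3.90, 4.00 and 3.90 with pinosylvin, and 4.01, 3.82 and 3.69 with resveratrol. The GR24 and the resveratrol arrays overlapped the control arrays, and the 3 pinosylvin arrays lay above them. GR24 gave -0.14 (95% interval -0.40 to 0.13, adjusted p = 0.362), resveratrol 0.24 (95% interval -0.022 to 0.51, adjusted p = 0.210) and pinosylvin 0.33 (95% interval 0.068 to 0.60, adjusted p = 0.0871). The pinosylvin difference passed with the replicate number as a block (adjusted p = 0.0212) and without control replicate 2 (adjusted p = 0.0331).

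**Figure D2:**
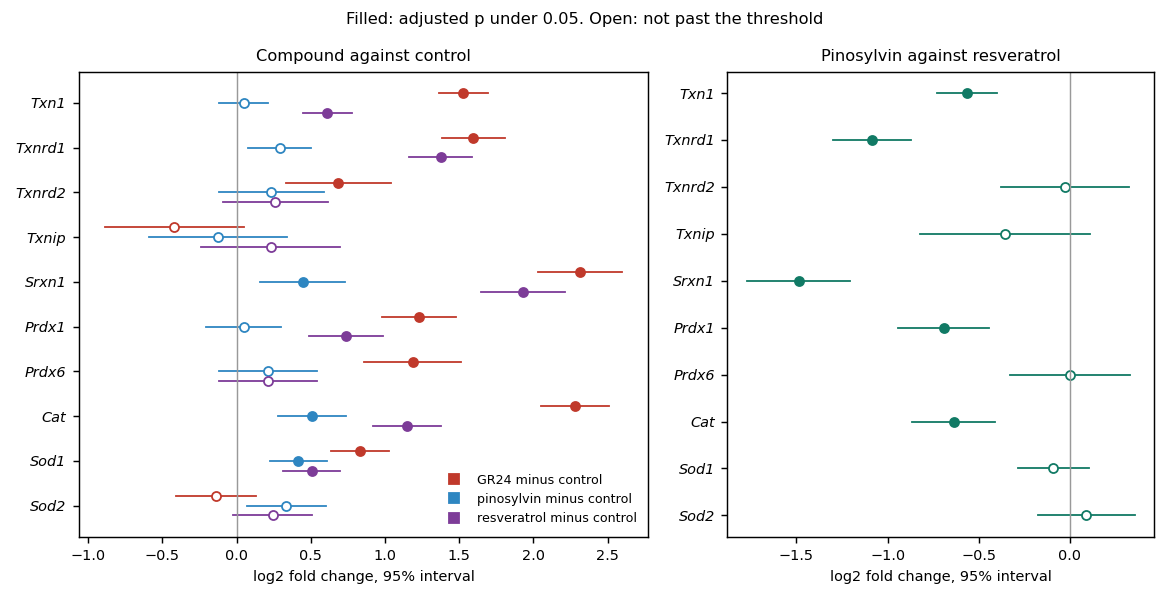
Log2 fold changes of the main probe of each gene with their 95% intervals, for each compound minus the control on the left and pinosylvin minus resveratrol on the right. Filled points passed an adjusted p of 0.05 and open points did not. With GR24 the points run from -0.42 for *Txnip* to 2.32 for *Srxn1*, and on the right 5 genes lie below 0 with intervals that do not reach it.

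Pinosylvin and resveratrol were compared directly, at the same dose and time. Pinosylvin is resveratrol without the hydroxyl group on its second ring. Of the 10 genes, 5 were lower with pinosylvin than with resveratrol, where 6.85% of all tested probes were lower. None was higher, where 7.68% were higher, and the count was also 0 at an unadjusted p under 0.05. The 5 were *Srxn1*, *Txnrd1*, *Prdx1*, *Cat* and *Txn1*, and in each of them every pinosylvin array was below every resveratrol array. *Srxn1* was 2.81-fold higher with resveratrol, a difference of -1.49 for pinosylvin minus resveratrol (SE 0.13, adjusted p = 5.82e-05). *Txnrd1* was 2.12-fold higher, with a difference of -1.09 (SE 0.095, adjusted p = 6.48e-05), and its second probe gave -0.90 (adjusted p = 0.000274). The differences of *Prdx1*, *Cat* and *Txn1* were -0.69, -0.64 and -0.56, with adjusted p-values of 0.00264, 0.00253 and 0.000773.

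For the other 5 genes no difference between the stilbenes passed. The intervals of pinosylvin minus resveratrol were -0.33 to 0.33 for *Prdx6*, -0.28 to 0.10 for *Sod1*, -0.18 to 0.36 for *Sod2*, -0.38 to 0.33 for *Txnrd2* and -0.82 to 0.11 for *Txnip*. The interval of *Txnip* is the widest and still holds a difference of the size seen for *Prdx1*. The estimates of *Prdx6* and *Txnrd2* were -0.0010 and -0.027, and their sign changed when single arrays were left out.

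GR24 was above pinosylvin for 8 of 10 genes, where 29.6% of all tested probes were higher, and below it for 1, where 26.8% were lower. The gene below was *Sod2*, at -0.47 (SE 0.12, adjusted p = 0.00636), with all 3 GR24 arrays under all 3 pinosylvin arrays. Among the 8, the differences ran from 0.42 for *Sod1* to 1.87 for *Srxn1*. That of *Txnrd2*, 0.45 (adjusted p = 0.0327), was lost without any of the 3 GR24 arrays (adjusted p = 0.0771, 0.0722 and 0.0600 for replicates 1, 2 and 3) and without pinosylvin replicate 1 or 3 (0.0541 and 0.125). *Txnip* did not pass, at -0.30 (95% interval -0.76 to 0.17), but did without pinosylvin replicate 1 (adjusted p = 0.0497).

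Against resveratrol, GR24 was higher for 7 of 10 genes, where 27.4% of all tested probes were higher, and lower for 2, where 23.9% were lower. The clearest were *Cat* at 1.13 (SE 0.10, adjusted p = 7.40e-06), *Prdx6* at 0.97 (SE 0.15, adjusted p = 0.000284), *Txn1* at 0.91 (SE 0.074, adjusted p = 3.27e-06) and *Prdx1* at 0.49 (SE 0.11, adjusted p = 0.00402). *Sod1* was 0.33 higher (SE 0.087, adjusted p = 0.00927) and missed the threshold within slide 1 (adjusted p = 0.0511). *Srxn1* was 0.38 higher (SE 0.13, adjusted p = 0.0273) although the lowest GR24 array and the highest resveratrol array overlapped.

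The other calls between GR24 and resveratrol were close to the threshold as well. *Txnrd2* was 0.42 higher (SE 0.16, adjusted p = 0.0461), while *Txnip* was 0.65 lower on the log2 scale, at -0.65 (SE 0.21, adjusted p = 0.0243), and *Sod2* lower at -0.38 (SE 0.12, adjusted p = 0.0209). *Srxn1* was lost without GR24 replicate 1 or 2 (adjusted p = 0.0989 and 0.0957) and without resveratrol replicate 2 or 3 (0.0599 and 0.102). *Txnip* was lost without GR24 replicate 1 or 2 (0.0735 and 0.0532) and without resveratrol replicate 3 (0.0913). *Sod2* was lost without GR24 replicate 3 (0.0751) or resveratrol replicate 1 (0.0824). *Txnrd2* was lost without GR24 replicate 1, 2 or 3 (0.103, 0.0954 and 0.0805), resveratrol replicate 2 or 3 (0.0535 and 0.174), control replicate 1 (0.0604) or pinosylvin replicate 1 (0.0599). Processing mattered as well. With no filter on dim probes *Srxn1*, *Txnip*, *Sod2* and *Txnrd2* were all lost (0.0696, 0.0572, 0.0569 and 0.103). *Txnip* was also lost in the deposited table (0.0562) and with the percentile over all spots (0.0649). *Srxn1* was lost with the arrays of the 2 groups alone (0.0571), and *Txnrd2* with quantile normalization (0.0616) and with adjustment over all contrasts together (0.0611).

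The order of the group means differed among the 10 genes. *Txn1*, *Prdx1*, *Srxn1*, *Txnrd1* and *Cat* stood in the order GR24, resveratrol, pinosylvin and control. In this order the neighbours pinosylvin and control overlapped for *Txn1* and *Prdx1*, and GR24 and resveratrol overlapped for *Srxn1*. For the first probe of *Txnrd1* neither pinosylvin and control nor GR24 and resveratrol overlapped, but both differences missed the threshold, which they passed with the replicate number as a block. *Sod1*, *Prdx6* and *Txnrd2* had the same order of means, but pinosylvin and resveratrol overlapped in all 3. *Txnip* and *Sod2* had other orders, with GR24 as the lowest group.

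Other genes of the thioredoxin and peroxide system were taken from lists of related genes. Of 78 listed genes 62 were tested, of which GR24 had 30 higher and 12 lower, pinosylvin 5 and 8, and resveratrol 8 and 7. Over all tested probes 31.5% were higher and 25.5% lower with GR24, 8.28% and 8.27% with pinosylvin, and 7.99% and 8.99% with resveratrol. With the replicate number as a block GR24 had 34 higher and 15 lower, beside 36.2% and 30.3% of all tested probes. Pinosylvin then had 8 and 10, beside 16.3% and 12.3%, and resveratrol 22 and 9, beside 14.1% and 13.8%. The counts of single lists that follow are without the block. The median log2 fold changes of the 62 genes with GR24, pinosylvin and resveratrol were 0.28, 0.042 and 0.10. Over all tested probes they were 0.027, 0.054 and 0.010.

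Of the 4 other peroxiredoxins, GR24 had 1 higher and 1 lower, beside 31.5% and 25.5% of all tested probes. Pinosylvin had 1 and 0, beside 8.28% and 8.27%, and resveratrol 1 and 0, beside 7.99% and 8.99%. The genes are given singly, and nothing is read from these counts. *Prdx5*, of mitochondria and peroxisomes, read 4.82, 4.82 and 4.78 in the control, 5.57, 5.63 and 5.50 with GR24, 5.25, 5.17 and 5.15 with pinosylvin and 5.20, 5.28 and 5.14 with resveratrol. All treated arrays were above the control arrays. It rose by a log2 of 0.76 (SE 0.063, adjusted p = 2.66e-06) with GR24, 0.39 (adjusted p = 0.0022) with pinosylvin and 0.40 (adjusted p = 0.00167) with resveratrol. *Prdx4*, the peroxiredoxin of the endoplasmic reticulum, was lower with GR24 at -0.54 (SE 0.066, adjusted p = 5.08e-05) and passed with neither stilbene. *Prdx2* and *Prdx3* passed in none of the 3 comparisons with the control, with log2 fold changes of -0.14 to 0.055 and 0.041 to 0.18. *Prdx3* passed for resveratrol, at 0.18, once the replicate number was a block (adjusted p = 0.0377). Of all 6 peroxiredoxins, *Prdx1*, *Prdx5* and *Prdx6* were higher with GR24 and *Prdx4* was lower.

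Of 13 other thioredoxins and reductases tested, GR24 had 7 higher and 1 lower, beside 31.5% and 25.5% of all tested probes, resveratrol 3 and 0, beside 7.99% and 8.99%, and pinosylvin 0 and 0, beside 8.28% and 8.27%. *Tmx2* and *Txnl1*, thioredoxin-related proteins, rose with GR24 by 0.86 (adjusted p = 1.53e-05) and 0.67 (adjusted p = 3.29e-05). The mitochondrial thioredoxin *Txn2*, the partner of *Txnrd2*, gave 0.097, 0.29 and 0.25 with GR24, pinosylvin and resveratrol, and none passed. With that block the values for pinosylvin and resveratrol passed (adjusted p = 0.00388 and 0.00785). *Txndc15*, with 3 probes, was called on 2 of them with GR24 (0.46 and 0.38) and not on the brightest (0.27, adjusted p = 0.0660), which passed with the block (0.0107).

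Of 5 glutathione peroxidases tested, which use glutathione in place of thioredoxin, GR24 had 2 higher and 3 lower, beside 31.5% and 25.5% of all tested probes, pinosylvin 2 and 1, beside 8.28% and 8.27%, and resveratrol 1 and 1, beside 7.99% and 8.99%. *Gpx1* rose with GR24 by 0.49 (SE 0.069, adjusted p = 0.000139), and *Gpx7*, of the endoplasmic reticulum, was lower at -1.07 (SE 0.095, adjusted p = 4.58e-06), as was its relative *Gpx8* at -0.39 (SE 0.063, adjusted p = 0.000346). *Gpx8* was higher with pinosylvin at 0.29 (adjusted p = 0.0104). This call was lost with no filter on dim probes (0.0586), with the arrays of the 2 groups alone (0.0678) and within slide 1 (0.0508). *Gpx4*, which acts on lipid peroxides, was higher with GR24 at 0.27 on its main probe (adjusted p = 0.0395) and 0.33 on its other probe (0.01335). Under the alternatives the main probe gave 0.18 to 0.44. The call of the main probe was lost under 9 alternatives, among them the fits without control replicate 1 or 3 (0.0758 and 0.145), GR24 replicate 1 or 2 (0.0864 and 0.119) or resveratrol replicate 1 (0.0533). *Gpx7* was lower with pinosylvin and resveratrol as well, at -0.48 and -0.47 (adjusted p = 0.00665 and 0.00719). *Gpx3*, the secreted form, was higher with pinosylvin and resveratrol at 0.60 and 0.58 (adjusted p = 0.000294 and 0.000425) and lower with GR24 at -0.26 (adjusted p = 0.0099).

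Of the glutaredoxins, *Glrx* rose with GR24 by 0.69 (SE 0.10, adjusted p = 0.000181) and was lower with pinosylvin at -0.42 (adjusted p = 0.0175). The latter call was lost without pinosylvin replicate 2 (adjusted p = 0.0699) or control replicate 3 (0.0589). *Glrx3* and *Glrx5* passed in none of the comparisons with the control. With the block *Glrx3* passed for resveratrol at -0.17 (adjusted p = 0.0299), and *Glrx5* for GR24 at 0.19 and resveratrol at 0.30 (0.0217 and 0.00766). Neither *Sod3*, the extracellular dismutase, nor *Ccs*, the copper chaperone of *Sod1*, passed for any compound, with log2 fold changes of -0.22 to 0.14 and -0.091 to 0.19. With the block *Sod3* passed for GR24, at -0.22 (adjusted p = 0.00243).

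Of 6 enzymes and partners that draw on thioredoxin, GR24 had 2 higher and 3 lower, beside 31.5% and 25.5% of all tested probes, pinosylvin 0 and 2, beside 8.28% and 8.27%, and resveratrol 0 and 3, beside 7.99% and 8.99%. Ribonucleotide reductase makes deoxynucleotides. *Rrm2*, its small subunit in dividing cells, read 6.68, 6.83 and 6.71 in the control, 3.73, 3.79 and 3.70 with GR24, 5.22, 5.41 and 5.43 with pinosylvin and 5.82, 5.93 and 5.85 with resveratrol. The 4 groups did not overlap. The log2 fold changes were -3.0, -1.39 and -0.87 (SE 0.074, adjusted p = 5.31e-10, 1.31e-06 and 4.52e-05), and the large subunit *Rrm1* gave -1.27, -0.72 and -0.45. *Rrm2b*, the other small subunit, was dim and passed in none of the 3 comparisons with the control. *Mki67*, *Ccnb1* and *Cdk1* were lower as well, and their part in this was not tested. *Apex1*, a DNA repair enzyme that passes reducing equivalents from thioredoxin to transcription factors, and *Msrb1*, a methionine sulfoxide reductase, rose with GR24 by 0.71 and 0.65 (adjusted p = 6.46e-05 and 0.00106). *Msra*, the other methionine sulfoxide reductase tested, went the other way and was among the 3 lower with GR24. With resveratrol *Msra* was lower too, at -0.57 (adjusted p = 0.0200), a call lost under 7 alternatives.

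Of 6 relatives and regulators of *Txnip* tested, GR24 had 3 higher and 0 lower, beside 31.5% and 25.5% of all tested probes. Pinosylvin had 1 and 1, beside 8.28% and 8.27%, and resveratrol 1 and 0, beside 7.99% and 8.99%. *Arrdc3*, a relative of *Txnip*, was higher with GR24 at 2.09 (SE 0.21, adjusted p = 9.66e-06), well above background on 3 GR24 and 2 control arrays. Its size depends on the background correction of dim signals, and was 1.04 at the lowest under the alternatives. *Mlx*, a partner of the glucose-sensing factors known to drive *Txnip*, read 0.84, 0.76 and 0.80 in the control and 1.72, 1.78 and 1.64 with GR24. All GR24 arrays were above all control arrays, and *Mlx* rose by a log2 of 0.91 (adjusted p = 1.71e-06, SE 0.071).

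For the 6 genes that changed by a log2 of over 1 against the control, the genes with the most similar pattern were sought among 9818 named genes well above background on all arrays. They are given for 5 of the 6. Likeness was the Euclidean distance over the 3 log2 fold changes against the control, so a small distance only says that the 3 values are close. Nearest to *Cat* was *Mgst1*, a microsomal glutathione transferase, at a distance of 0.0522, with log2 fold changes of 2.25, 0.50 and 1.11 for GR24, pinosylvin and resveratrol. *Txnrd1* was followed by *F3*, *Pir* and *Pgd* at distances of 0.172, 0.208 and 0.251. *Txn1* lay nearest to *Myzap*, *Abcc4* and *Tmem140* (0.0466, 0.0739 and 0.100), *Prdx1* to *Herc3*, *Ascl3* and *Kitlg* (0.118, 0.178 and 0.191), and *Prdx6* to *Nhej1*, *Scamp1* and *Slc3a2* (0.0353, 0.0463 and 0.0505).

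Promoter sequences, 250 bases before to 50 after a gene start, were taken from RefSeq (GRCr8) and were there for 8 of the 10 genes, in 9 windows. *Txnip* and *Prdx6* had no entry. They are shown because several of these genes rose together. The core of the antioxidant response element, TGACNNNGC, was searched on both strands. It was found in the windows of 3 genes, *Sod2*, *Prdx1* and *Txnrd1* (in 1 of its 2 windows), while 12.1% of all 33469 promoters of the same length held it. In all 3 it lay on the strand opposite to the gene, so that the printed strand shows its complement GCNNNGTCA in capitals. It begins 35 bases before the gene start used for *Sod2*, 135 before that for *Prdx1* and 78 before that for *Txnrd1*. Both starts used for *Txnrd1* lie inside the span of the gene in the RefSeq table, the matching start 46649 bases from its outer end. The match is a description of the letters only. Of the 3 genes *Prdx1* and *Txnrd1* were higher with GR24 and with resveratrol and *Sod2* with neither. *Srxn1*, *Cat*, *Txn1* and *Sod1*, which were also higher with both, had no match in their windows. The sites, with 10 bases on each side and in the direction of the gene, are:
Sod2, chr1:50050185-50050213, minus strand: ggcgctgccgGCAGGGTCAgcgcctagct
Prdx1, chr5:135383761-135383789, plus strand: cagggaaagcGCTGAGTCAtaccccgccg
Txnrd1, chr7:22755964-22755992, minus strand: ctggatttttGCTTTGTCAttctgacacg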

How the data were processed

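The authors deposited the output of the Agilent Feature Extraction software (version 12.0.0.7 per the labels) for each 1-colour array. The processed signal in these files is an intensity that the authors deposited after background subtraction on its own array, with no scaling between arrays, and median intensities of spots and local backgrounds stand beside it. The deposited files also hold marks, each 0 or 1, which say whether a spot is an outlier, is saturated or is well above background. In addition the authors deposited a table of log2 values for 25848 probes, used here as an alternative only. Its columns have medians of 9.21 to 9.24 and their correlation with the log2 median spot signals of the same arrays was 0.9994 to 0.9998. They are log2 values that are not centred, and the background correction and scaling behind them are not given in the sources used here.

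Spots of control probes were not used, nor were those marked as outliers. The log2 processed signal was averaged over the spots of a probe, and the 75th percentile of the array over its probes was subtracted. That percentile was 720 to 1038. Between 58.0% and 64.3% of an array's spots stood well above background, and 0 were saturated. The number of arrays limits the precision. Tests used limma 3.58.1 in R 4.3.3, with all 12 arrays in 1 fit, a mean per group, eBayes and Benjamini-Hochberg adjustment over 24279 probes in each of 6 comparisons, at a threshold of 0.05. The code was tested on simulated data. Of several probes of a gene, the brightest over all arrays, called the main probe, stands for it. RefSeq identifiers were named through the RefSeq table of GRCr8, which named 21109 probes.

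The labels give replicate numbers 1 to 3 in every group. Deviations from the group means correlated between arrays of the same number, at 0.19 to 0.74 over the tested probes in all 6 comparisons, so the numbers were taken to pair the arrays. The pairing comes from the labels and these correlations, and the numbers go along with the slide. The fit with the replicate number as a block is given where it changes the call of a member, or of a printed value of a related gene against the control. Counts for single lists were not repeated with it.

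From each list of related genes, those to name were up to 2 per direction and comparison with the control that had the largest changes among genes called without overlapping arrays, and every gene of lists of 5 or fewer. Most values among them whose call was lost under an alternative are not printed. *Txn2*, *Rrm2b*, the GR24 value of *Gpx3*, the other probe of *Gpx4*, the resveratrol value of *Rrm1* and the GR24 direction of *Msra* were added after their values were seen. *Txndc15* is named because its probes disagree. The members and lists were chosen with earlier results of these data known, so no test over a list was made. Alternatives were other normalizations, background corrections, filters, blocks, probes and adjustments, the deposited table, single slides and each array left out.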

Additional observations from a re-analysis of the deposited data

How the results depend on the processing

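The log2 fold changes of the 10 genes in 6 comparisons were recomputed under 29 alternatives, 28 of them with a test, which gave 1740 values. Where a test was possible 43 lost a call, 24 gained one and 13 changed sign. Within slide 2, with 1 array per group and no test, 21 moved by more than the spread between arrays. The other 1639 were counted as the same. All 8 calls of GR24 and all 6 of resveratrol against the control were kept under all 28, as were all 5 between pinosylvin and resveratrol. Of the calls of pinosylvin against the control 1 of 3 was kept throughout (*Cat*), of GR24 against pinosylvin 8 of 9, and of GR24 against resveratrol 4 of 9 (*Txn1*, *Prdx1*, *Prdx6* and *Cat*).

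With no filter on dim probes, 2409 probes were called for pinosylvin against the control (4019 with the filter), 2680 for resveratrol against the control (4123), 1975 for pinosylvin against resveratrol (3528), and 5 genes for GR24 against resveratrol (9). With the arrays of the 2 groups alone, 1 gene and 2479 probes were called for pinosylvin against the control. With the replicate number as a block it was 5 genes, and 6947 probes for pinosylvin, 6769 for resveratrol and 6323 between them. With the slide as a block it was 5 genes and 7074, 6869 and 6443 probes. Besides these counts, the replicate block let *Txnip* pass for GR24, *Txnrd1* and *Sod2* for pinosylvin and *Txnrd1* for GR24 against resveratrol, and it changed no other call of the main probes of the 10 genes. Of the 62 related genes it gained 7 calls for GR24, 5 for pinosylvin and 16 for resveratrol and lost 0. Leaving out 1 array gave 2148 to 3683 probes for pinosylvin against resveratrol, the lowest being 2148 without pinosylvin replicate 2, 2237 without resveratrol replicate 2 and 2311 without resveratrol replicate 3.

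With the percentile over all spots, chosen after seeing the data, 5 genes were called for pinosylvin, and of the probes called for GR24 against resveratrol 63.7% were higher, compared with 53.4%. That scaling moved the median of all probes in this comparison by 0.10. Without a filter the medians moved by -0.14 for resveratrol against the control, 0.22 for GR24 against resveratrol and 0.14 for pinosylvin against resveratrol.

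All changes of sign were in values that had not passed. *Txn1* with pinosylvin was -0.040 after quantile normalization, -0.015 after normexp and quantile normalization and -0.027 in the deposited table. *Prdx6* for pinosylvin minus resveratrol was 0.012 in the deposited table, 0.042 within slide 1, 0.024 with the percentile over all spots and -0.089 to 0.14 with 1 array left out. Leaving out 1 array gave -0.35 to 0.089 for *Txnip* with pinosylvin and -0.17 to 0.11 for *Txnrd2* between the stilbenes. Within slide 2, *Txn1*, *Prdx1* and *Txnip* with pinosylvin (-0.016, -0.0074 and 0.051) and *Sod1* between the stilbenes (0.012) also had the other sign. For all these changes the cause was not tested.

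The naming rule selected 49 values from the lists of related genes, not all of them printed. Of these 36 kept their call throughout, 13 lost it somewhere and 0 changed sign. Printed values outside the rule were run under no alternative but the replicate block. The limits are 3 arrays per group, replicate numbers that go along with the slide, 1 probe for 9 of the genes, and mRNA alone, with no protein or enzyme activity measured. The shifts in markers of muscle and of cycling or undifferentiated cells stand beside the results of all 3 compounds.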

Other observations

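Of 10 enzymes tested that make superoxide and peroxide, GR24 had 5 higher and 3 lower, beside 31.5% and 25.5% of all tested probes. Pinosylvin had 1 and 3, beside 8.28% and 8.27%, and resveratrol 0 and 3, beside 7.99% and 8.99%. *Nox1*, a NADPH oxidase that makes superoxide, read 2.09, 2.42 and 2.11 in the control, -1.09, -0.92 and -1.12 with GR24, 0.58, 0.82 and 0.83 with pinosylvin and 0.40, 0.46 and 0.53 with resveratrol. Every treated array was below every control array, and the GR24 arrays were lowest. The log2 fold changes were -3.25, -1.47 and -1.74 (SE 0.11, adjusted p = 3.67e-09, 8.71e-06 and 6.92e-06). *Nox4*, another NADPH oxidase, was lower with GR24 at -1.79 (adjusted p = 1.32e-05), a size that shrank to -0.78 with another background correction and normalization. *Duox2*, which makes hydrogen peroxide, went up with GR24 by 1.59 and was lower with pinosylvin at -0.60 (adjusted p = 4.38e-07 and 0.00316). No control array showed *Ero1b*, an oxidase of the endoplasmic reticulum that gives off peroxide, well above background, while all 3 GR24 arrays did. It was tested only because the GR24 arrays showed it, so its call among the 5 is no support. The 1 gene higher with pinosylvin was *Ero1b* too, with no pinosylvin or control array well above background, and nothing is read from it.

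Thioredoxin reductases need selenocysteine, and catalase needs import into peroxisomes. Of 6 genes of selenoprotein synthesis, GR24 had 4 higher and 1 lower, pinosylvin 0 and 0, and resveratrol 1 and 0, beside the same shares of all tested probes. *Pstk*, a kinase of the selenocysteine pathway, rose by 0.84 (SE 0.079, adjusted p = 7.04e-06) with GR24 and 0.46 (adjusted p = 0.00272) with resveratrol. *Secisbp2*, which brings the selenocysteine machinery to the mRNA, rose with GR24 by 0.59 (SE 0.12, adjusted p = 0.00155). *Sephs1* was lower with GR24 at -0.37 (adjusted p = 0.00494). Of 7 genes of peroxisome import, GR24 had 5 higher and 0 lower, beside 31.5% and 25.5% of all tested probes. Pinosylvin had 0 and 0, beside 8.28% and 8.27%, and resveratrol 1 and 0, beside 7.99% and 8.99%, and nothing is read from these. *Pex10*, a membrane protein of the import machinery, rose with GR24 by 1.12 (SE 0.13, adjusted p = 3.20e-05), and *Pex5*, the receptor for imported enzymes, by 0.46 (adjusted p = 0.000382).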
